A study of Mus musculus with 4 samples.

Results

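Malat1, Neat1, Meg3, Rian, Mirg, Miat, Snhg11 and Gas5 are long noncoding RNAs known from brain, chosen by name and found by gene symbol. All 8 had a row among the 22609 gene symbols of the count files and all 8 passed the filter on low counts. RNA sequencing compared hippocampi of GFAP-ARO-KO mice, whose floxed aromatase gene Cyp19a1 is removed by a Cre driven from the Gfap promoter, with hippocampi of FLOX-control mice (2 libraries each). The labels place that Cre in astrocytes and give all animals as ovariectomized females whose common carotid arteries were both clipped for 20 min before 24 h of reperfusion, with the ovaries removed a week earlier. There was no sham group, the labels give neither age nor strain, and nothing says whether a library came from 1 animal or from several. The p-values therefore measure the spread between these libraries only.

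Long noncoding RNAs act without being translated. Malat1 lies in nuclear speckles, the stores of splicing factors, Neat1 is the scaffold of paraspeckles, and Miat (also called Gomafu) forms a nuclear compartment of its own in neurons. Meg3, Rian and Mirg are read from the maternal copy of the imprinted Dlk1-Dio3 domain and carry snoRNAs and microRNAs in their bodies. Gas5 and Snhg11 are host genes of snoRNAs, the small RNAs that guide chemical modification of other RNAs.

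The sequence elements that set some of these RNAs apart are shown first. The end of Malat1 is protected by a triple helix of 2 U-rich motifs and an A-rich tract instead of an ordinary poly(A) tail. It lies at chr19:5795983-5796072 on the minus strand of mm9, where the motifs TTTTTCTTTT and TTTTGCTTTT and a run of 12 A are in capitals. The first motif occurred 3 times in the 6982 bases of the gene and the second 1 time, both searched on the transcribed strand only, and no other run of at least 10 A was found.
Malat1 end: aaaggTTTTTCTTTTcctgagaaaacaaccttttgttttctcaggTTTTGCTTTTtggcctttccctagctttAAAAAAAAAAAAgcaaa

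Miat is known for repeats of ACTAAC, which resemble the intron branch point bound by the splicing factor SF1. Its exons held 11 copies on the transcribed strand, or 1.26 per kb. Of 1048 annotated noncoding genes with at least 2 kb of exon, 1 had that many, Miat itself, and 4 reached its density, Miat included. The stretch with the most copies within 150 bases, at chr5:112646334-112646474 on the minus strand of mm9, has 4, shown in capitals.
Miat repeats: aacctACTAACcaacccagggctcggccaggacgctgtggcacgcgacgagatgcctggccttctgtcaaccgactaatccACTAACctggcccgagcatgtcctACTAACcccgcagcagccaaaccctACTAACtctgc

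Gas5 is a 5' TOP RNA, a class that begins with a C and a run of pyrimidines. Its spliced RNA is known to be degraded when it is translated, through nonsense-mediated decay. The RefSeq start sites (GRCm38.p6) are printed with 30 bases before and 40 bases from the annotated first base. The run of pyrimidines from that base on is in capitals. The Gas5 window is chr1:161035136-161035205 on the plus strand, the Miat window chr5:112228909-112228978 on the minus strand and the Snhg11 window chr2:158375683-158375752 on the plus strand.
Gas5 start: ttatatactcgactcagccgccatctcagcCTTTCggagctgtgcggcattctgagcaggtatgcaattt
Miat start: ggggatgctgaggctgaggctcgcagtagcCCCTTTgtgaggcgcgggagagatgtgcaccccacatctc
Snhg11 start: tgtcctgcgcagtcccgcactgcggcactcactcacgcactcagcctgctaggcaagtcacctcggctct
A C followed by at least 4 pyrimidines opened 1 of the 2 Gas5 start sites and the Miat start site, but neither Snhg11 nor the start sites given for Malat1, Meg3, Rian and Mirg. Such an opening was found for 3.01% of 27025 genes with a RefSeq start site and for 3 of 17 snoRNA host genes. Only the annotated first base was checked, so a 5' TOP start annotated some bases off would be missed.

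Mirg carries 10 microRNA genes within its RefSeq span, against 3 in Rian and 2 in Meg3. Among their mature forms 1 pair shares a seed, bases 2 to 8 in capitals, miR-453 and miR-496a-5p. These are printed with miR-410-3p, whose hairpin lies in an exon of Mirg; on the plus strand of GRCm38.p6 they lie at chr12:109735669-109735692, chr12:109739132-109739152 and chr12:109743764-109743784.
mmu-miR-453: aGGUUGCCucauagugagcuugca
mmu-miR-496a-5p: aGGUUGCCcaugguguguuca
mmu-miR-410-3p: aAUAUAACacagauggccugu
The microRNAs themselves were not measured here. The rows of 9 microRNA genes within Mirg held 14 and 13 reads in the GFAP-ARO-KO libraries, against 20 and 14 in the FLOX-control libraries.

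The GFAP-ARO-KO libraries held 34878375 and 27930696 reads assigned to genes, against 33495548 and 33235564 in the FLOX-control libraries. The targeted gene could not check the labels, since Cyp19a1 had 1 and 9 reads in the GFAP-ARO-KO libraries, against 3 and 2 in the FLOX-control libraries. Markers of hippocampal neurons and glia were present, and several lists differed between the groups. The 8 markers of excitatory neurons summed to 12570 and 12820 CPM (the read count scaled by library size) in GFAP-ARO-KO, against 13040 and 13720 CPM in FLOX-control. Of 8 microglial markers all 8 were lower in GFAP-ARO-KO (7 without FLOX-control replicate 2), with sums of 203.7 and 197 CPM, against 381.8 and 426.4 CPM. Of 8 oligodendrocyte markers 5 were lower (3 and 2 without FLOX-control replicate 1 and 2), and of 8 astrocyte markers 2, Gfap and Aqp4, were lower with all libraries and with any 1 left out. Of 6 tested choroid plexus markers 3 were higher (0 without either control, 2 without GFAP-ARO-KO replicate 1 and 1 with DESeq2), with sums of 49.74 and 64.8 CPM in GFAP-ARO-KO, against 34.22 and 36.55 CPM in FLOX-control. Of 6 tested markers of thalamus and hypothalamus 1 was higher (0 without either control or GFAP-ARO-KO replicate 2) and 1, the glutamate transporter gene Slc17a6, was lower under all 14 alternatives, with sums of 103.8 and 120.7 CPM in GFAP-ARO-KO, against 194.5 and 198.4 CPM in FLOX-control. That last sum fell through Slc17a6 itself, which had 11.08 and 19.68 CPM in GFAP-ARO-KO, against 116.8 and 110.6 CPM in FLOX-control. Prkcd was the marker of that list that was higher, and the other 4 did not pass. The part of these differences in the levels of the 8 RNAs was not tested. In whole tissue, fewer cells of a type and less RNA per cell cannot be told apart.

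The RNAs differed in level as much as in reputation. Divided by exon length, Malat1 had the most reads, at 94.4 ± 11.2 CPM per kb in GFAP-ARO-KO and 76.2 ± 17 in FLOX-control (mean ± SD, n = 2 each). Snhg11 followed at 68.9 ± 10.1 in GFAP-ARO-KO and 62.2 ± 4.57 in FLOX-control, then Meg3 at 50.8 ± 4.27 and 48.1 ± 6.42, Rian at 36.3 ± 0.535 and 35.3 ± 2.18, Miat at 33.9 ± 2.99 and 26.5 ± 3.03, and Gas5 at 26.2 ± 0.979 and 17 ± 4.77. In each of the 4 libraries these 6 stood in the same order, although Rian and Miat lay within their spread in GFAP-ARO-KO, as did Malat1 and Snhg11 in FLOX-control. Neat1, at 3.03 ± 1.88 and 2.75 ± 0.449 CPM per kb, and Mirg, at 1.86 ± 0.606 and 2.14 ± 0.105, were far below and changed places between libraries. Among 14641 tested genes with a length, the first 6 lay between the 80.1th percentile for Gas5 and the 96.2th for Malat1, whereas Neat1 lay at the 33.8th and Mirg at the 27.9th. The name abundant thus did not suit Mirg, and for Neat1 it depends on the gene model. All Neat1 reads were also divided by the 3004 bases of its short transcript. That gave 11.8 and 30.1 CPM per kb in GFAP-ARO-KO, against 16.9 and 21.2 in FLOX-control. Reads within the short transcript alone were not counted, so these values are upper bounds for it. The sources used here do not give the annotation behind the counts, so all values per kb rest on GENCODE vM1. Exon length here joins the exons of all transcripts of a gene. The longest single transcript is shorter for Snhg11 (5864 against 8521 bases), Rian (5248 against 8197), Meg3 (14548 against 18089) and Gas5 (2556 against 3760). For Malat1 and Miat it is the same length, so the order of these 6 also depends on the gene model.

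The comparison asks whether loss of aromatase in astrocytes changed these RNAs in the ischemic hippocampus. None of the 8 passed an adjusted p of 0.05 by edgeR's quasi-likelihood test, where 20.4% of the 15011 genes tested did (9.39% higher and 11.0% lower in GFAP-ARO-KO). At an unadjusted p under 0.05 there were 2, Gas5 and Miat, against 36.5% of all genes in either direction and 17.2% higher. DESeq2 called 2 of the 8 and 21.3% of all genes, and limma-voom called 1 and 19.3%. Of the other alternatives with all 4 libraries, upper-quartile scaling called 1 (20.7% of all genes), a minimum count of 50 called 1 (22.0%), legacy estimation called 1 (21.0%), no scaling factors called 2 (20.9%) and the replicate number as a block called 2 (21.3%), while RLE scaling (20.4%), totals without the 8 (20.4%) and no filter (15.7%) called 0. With 1 library left out, 0 were called without FLOX-control replicate 1 (5.87% of all genes), 1 without FLOX-control replicate 2 (5.29%), 2 without GFAP-ARO-KO replicate 1 (31.5%) and 1 without GFAP-ARO-KO replicate 2 (18.1%). Of genes with an average log2 CPM of at least 6, where most of these RNAs lie, 19.5% of 3821 were called. The log2 fold change was positive for 7 of the 8, with a median of 0.139, against -0.000809 for all genes tested. In 2 of the 8, Gas5 and Miat, both GFAP-ARO-KO libraries lay above both FLOX-control libraries, and in 0 both lay below; this held for 32.0% and 32.8% of all genes tested.

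**Figure D1:**
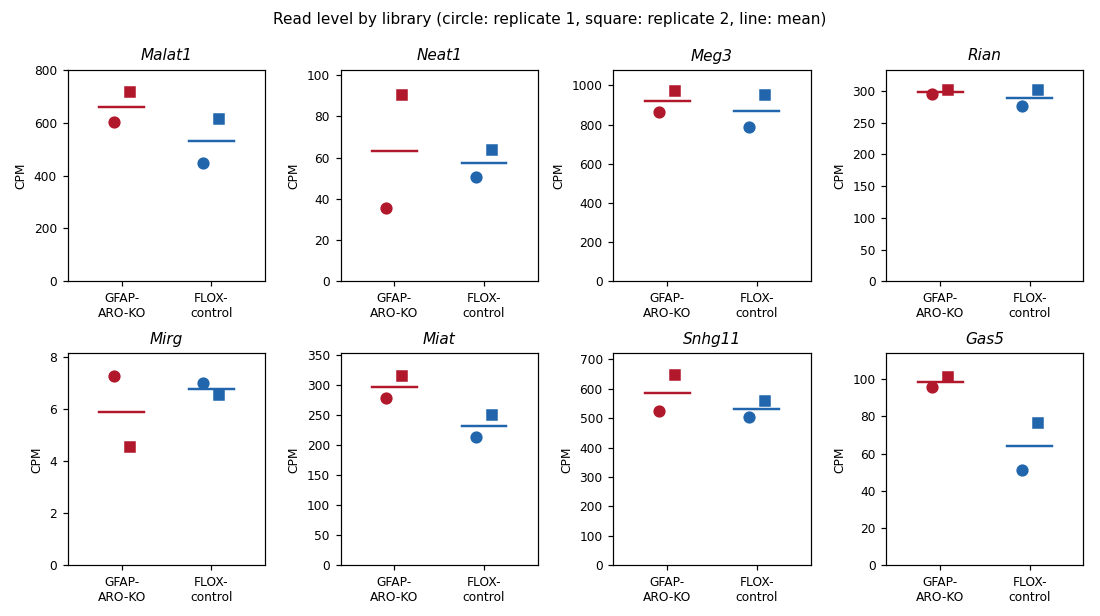
Read level in CPM (vertical axes, each from 0) of the 8 long noncoding RNAs in 2 GFAP-ARO-KO and 2 FLOX-control libraries, with lines at the group means. The groups stand apart for Gas5 and Miat and overlap for the other 6, and the GFAP-ARO-KO libraries of Neat1 lie on either side of both controls, at 35.4 and 90.5 CPM.

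**Figure D2:**
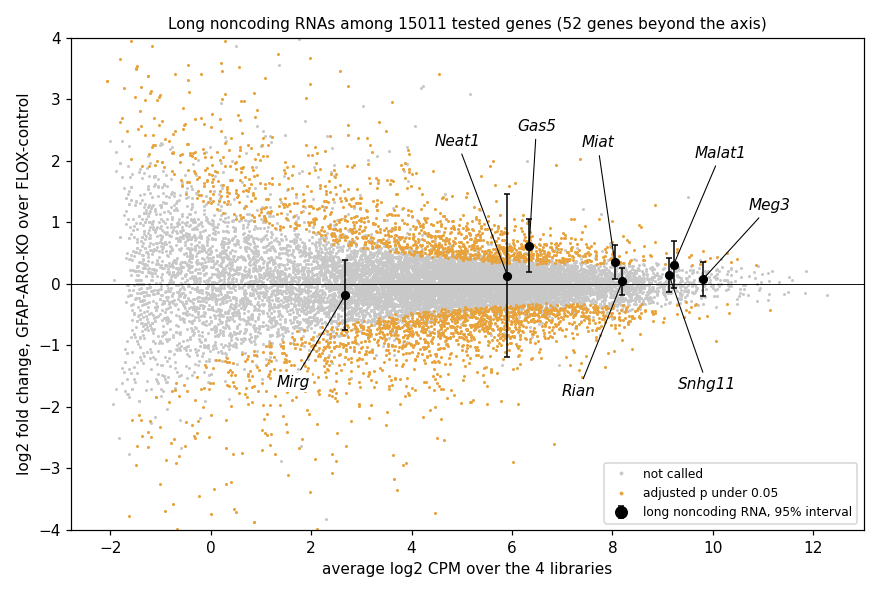
Log2 fold change of GFAP-ARO-KO over FLOX-control (vertical axis) against average log2 CPM (horizontal axis) for 15011 tested genes, of which 52 lie beyond the axis. Black points are the 8 RNAs with 95% confidence intervals; Gas5, at 0.62, and Miat, at 0.36, have intervals above 0 but did not pass after adjustment over all genes.

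Of the RNAs of nuclear bodies, Malat1 had 604 and 714.9 CPM in the GFAP-ARO-KO libraries, against 448 and 615.9 CPM in the FLOX-control libraries. The lower knockout value lay just below the higher control value, so the groups overlapped. The log2 fold change was 0.31 ± 0.16 (SE, adjusted p = 0.214), with a 95% interval of -0.075 to 0.695. Both controls bore on it, since it was 0.106 without FLOX-control replicate 1 and 0.555 without FLOX-control replicate 2, neither passing (adjusted p = 0.721 and 0.0762).

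Miat had 278.2 and 315.2 CPM in the GFAP-ARO-KO libraries, against 213 and 250.5 CPM in the FLOX-control libraries. Both knockout values lay above both controls. The log2 fold change was 0.36 ± 0.12 with a 95% interval of 0.0857 to 0.628, and it did not pass (adjusted p = 0.0673). It passed under 4 of 14 alternatives, which were DESeq2 (adjusted p = 0.0286), library totals without scaling factors (0.0477), the replicate number as a block (0.0413) and the fit without GFAP-ARO-KO replicate 1 (0.0167). The range over all alternatives was 0.0167 to 0.354, the highest without FLOX-control replicate 1.

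Neat1 was the most variable of the 8. It had 35.4 and 90.51 CPM in the GFAP-ARO-KO libraries, against 50.62 and 63.8 CPM in the FLOX-control libraries. The second knockout library was thus 2.56 times the first, and the controls fell between them. The log2 fold change, 0.13 ± 0.48 (adjusted p = 0.876), had an interval of -1.2 to 1.46, too wide to tell a fall from a rise. Without GFAP-ARO-KO replicate 1 Neat1 passed as higher (0.662, adjusted p = 0.00821), and without GFAP-ARO-KO replicate 2 it passed as lower (-0.682, adjusted p = 0.026). Its sign also changed without FLOX-control replicate 1 (-0.0162) and with limma-voom (-0.028). Neat1 relative to Malat1 ran likewise, at 5.86 and 12.7 Neat1 reads per 100 Malat1 reads in GFAP-ARO-KO, against 11.3 and 10.4 in FLOX-control.

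Markers of another tissue were also highest in the second knockout library, as Neat1 was. In both, FLOX-control replicate 2 came next, while the order of the lowest libraries differed. The 8 meningeal markers (Dcn, Lum, Col1a1, Col1a2, Ogn, Slc6a13, Igf2 and Slc22a6) summed to 112.4 and 454.6 CPM in the GFAP-ARO-KO libraries, against 102.5 and 148.1 CPM in the FLOX-control libraries. With all 4 libraries none of the 8 passed by edgeR or DESeq2, 0 had an unadjusted p under 0.05 by edgeR, and 7 passed as higher without GFAP-ARO-KO replicate 1. Their part in the Neat1 level was not tested.

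**Figure D3:**
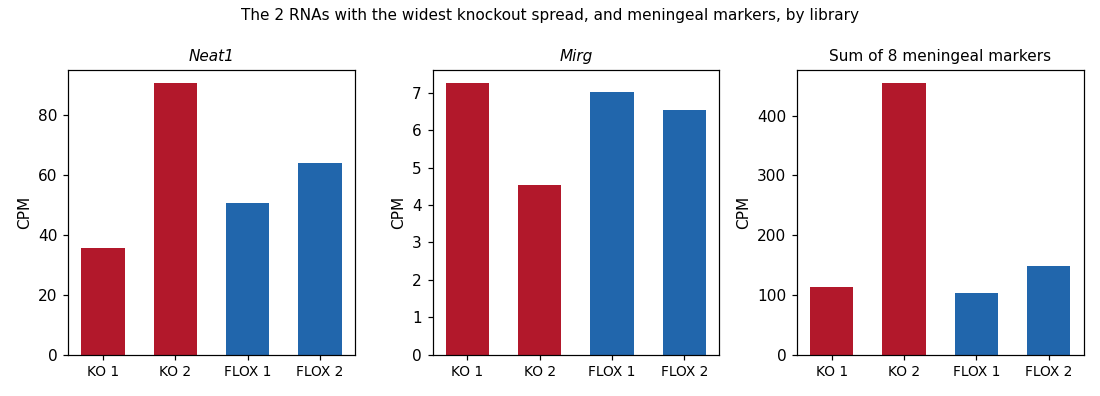
CPM (vertical axes from 0) of Neat1, of Mirg and of the sum of 8 meningeal markers in each library, GFAP-ARO-KO (KO) in red and FLOX-control (FLOX) in blue. The second knockout library is highest for Neat1 (90.5 CPM) and for the markers (454.6 CPM) and lowest for Mirg (4.54 CPM).

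RNA levels of genes for proteins that build paraspeckles on Neat1 went both ways. Of 10 tested, 2 fell, 2 rose and 6 did not pass. Of all genes tested 20.4% passed, the share beside which this and the later list counts stand. Sfpq, an essential paraspeckle protein and splicing factor, had 82.1 and 72.92 CPM in GFAP-ARO-KO, against 142 and 136.2 CPM in FLOX-control, and fell by 0.84 ± 0.10 (log2, adjusted p = 0.00343). Rbm14, which gives paraspeckles their gel-like substance, had 60.03 and 59.63 CPM in GFAP-ARO-KO, against 36.58 and 34.19 CPM in FLOX-control, and rose by 0.76 ± 0.10 (adjusted p = 0.00455). Both held under all 14 alternatives. Tardbp, an RNA-binding protein, fell by 0.39 ± 0.10 (adjusted p = 0.035), a call lost without FLOX-control replicate 1 (0.164), FLOX-control replicate 2 (0.18) or GFAP-ARO-KO replicate 1 (0.0536). Nono and Pspc1, the usual partners of Sfpq, had log2 fold changes of -0.0034 ± 0.10 and -0.01 ± 0.10. Without either control 1 of the list fell and 1 rose. Rbm14, Tardbp, Nono and Pspc1 were named after their values were seen.

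Of 16 genes for proteins of nuclear speckles and splicing, among them partners of Malat1 and Miat, 2 rose, 1 fell and 13 did not pass. The median log2 fold change of their RNA was 0.018. Srsf5, a splicing factor, rose by 0.61 ± 0.15 (adjusted p = 0.0303), which was lost without FLOX-control replicate 1 (0.163) or GFAP-ARO-KO replicate 2 (0.0809). Srrm2, a scaffold of speckles, did not pass, at -0.23 ± 0.14 on the log2 scale (adjusted p = 0.264). Qk, the 1 that fell, had 144.7 and 187.3 CPM in GFAP-ARO-KO, against 236.7 and 219.4 CPM in FLOX-control. Its log2 fold change was -0.46 ± 0.13 (adjusted p = 0.0498 by edgeR), and it was named after its values were seen. Qk passed under 6 of the 10 alternatives that kept all libraries. Sf1 and Celf3, both known to bind Miat repeats, had log2 fold changes of -0.04 ± 0.09 and -0.28 ± 0.12 and were named after their values were seen; Celf3 passed as lower without GFAP-ARO-KO replicate 1 (adjusted p = 0.00919). Without FLOX-control replicate 1 no member of this list passed, without FLOX-control replicate 2 1 rose, without GFAP-ARO-KO replicate 1 3 rose and 1 fell, and without GFAP-ARO-KO replicate 2 1 fell.

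The imprinted RNAs of chromosome 12 did not pass. Meg3 had 863.7 and 972.8 CPM in the GFAP-ARO-KO libraries, against 788.6 and 952.7 CPM in the FLOX-control libraries. The values interleaved, and the log2 fold change was 0.08 ± 0.12 (adjusted p = 0.673), with an interval of -0.197 to 0.35. Rian, next along the strand, had 294.9 and 301 CPM in GFAP-ARO-KO, against 276.9 and 302.2 CPM in FLOX-control, or 0.04 ± 0.09 on the log2 scale (adjusted p = 0.782, interval -0.177 to 0.259). Its log2 fold change had the smallest SE of the 8. The sign of Meg3 turned without FLOX-control replicate 1 (-0.0462) or GFAP-ARO-KO replicate 2 (-0.0009), and that of Rian without FLOX-control replicate 1 (-0.0133).

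Mirg, the last of the 3, gave few reads, with 255 and 128 in GFAP-ARO-KO, against 235 and 214 in FLOX-control. That was 7.26 and 4.54 CPM in GFAP-ARO-KO, against 7.02 and 6.54 CPM in FLOX-control. The second knockout library stood below the other 3. The log2 fold change was -0.18 ± 0.24 (adjusted p = 0.625, interval -0.749 to 0.384), and it was 0.109 without GFAP-ARO-KO replicate 2 and -0.58 without GFAP-ARO-KO replicate 1.

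Within the domain, Rian kept a like ratio to Meg3 in all libraries, at 34.1 and 30.9 Rian reads per 100 Meg3 reads in GFAP-ARO-KO, against 35.1 and 31.7 in FLOX-control. Mirg did so less, at 8.41 and 4.66 reads per 1000 Meg3 reads in GFAP-ARO-KO, against 8.9 and 6.87 in FLOX-control. Of the 6 genes listed for the domain, the 3 RNAs included, none passed by edgeR or by DESeq2, and 1, Dio3, had an unadjusted p under 0.05 by edgeR. Dio3, an enzyme that inactivates thyroid hormone and is read from the paternal copy, had 10.17 and 8.58 CPM in GFAP-ARO-KO, against 5.29 and 7.71 CPM in FLOX-control (log2 fold change 0.54 ± 0.22, adjusted p = 0.126). Dlk1, a paternally expressed ligand-like protein, did not pass, at 0.23 ± 0.17 on the log2 scale (adjusted p = 0.362). Rtl1, a retrotransposon-derived paternal gene, had 53 and 3 reads in GFAP-ARO-KO, against 15 and 20 in FLOX-control, and passed as higher without GFAP-ARO-KO replicate 2 (adjusted p = 0.04). Dlk1 and Rtl1 were named after their values were seen. Of 10 genes beside the domain 1 rose, Degs2, a sphingolipid enzyme (0.97 ± 0.25, adjusted p = 0.0323), a call lost without FLOX-control replicate 1 (0.111), FLOX-control replicate 2 (0.222) or GFAP-ARO-KO replicate 2 (0.0579), and with DESeq2 (0.0516). Dync1h1, the dynein heavy chain, had a log2 fold change of -0.14 ± 0.14. Without GFAP-ARO-KO replicate 1, 1 gene beside the domain rose and 1 fell.

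Meg3 is known to bind polycomb repressive complex 2. Of 10 genes of that complex and its partners 1 rose, Ezh1, a methyltransferase subunit (0.49 ± 0.12, adjusted p = 0.0261), a call lost without FLOX-control replicate 1 (0.152) or 2 (0.108). Without GFAP-ARO-KO replicate 1, 2 rose. Rbbp7, a histone-binding subunit, did not pass, at 0.17 ± 0.09 on the log2 scale (adjusted p = 0.226). Of 4 tested imprinted noncoding RNAs from other domains 1 fell, H19, with 2 and 6 reads in GFAP-ARO-KO, against 32 and 62 in FLOX-control (adjusted p = 0.0143, and 0.0701 without FLOX-control replicate 2). Peg13, a brain RNA, had 300.6 and 309.7 CPM in GFAP-ARO-KO, against 366.9 and 361.6 CPM in FLOX-control (-0.26 ± 0.09, adjusted p = 0.0778).

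The snoRNA host Gas5 showed the largest log2 fold change of the 8. It had 95.77 and 101 CPM in the GFAP-ARO-KO libraries, against 51.22 and 76.56 CPM in the FLOX-control libraries. The knockouts lay close together above both controls, which differed from each other 1.49-fold. The fold was 1.54 (log2 0.62 ± 0.18, 95% interval 0.194 to 1.05), just short of the threshold (adjusted p = 0.0523). It passed under 8 of 14 alternatives, 7 of the 10 that kept all libraries, with adjusted p from 0.00396 with DESeq2 to 0.21 without GFAP-ARO-KO replicate 2. Without FLOX-control replicate 2 it was 0.939 and passed (adjusted p = 0.0155), and without FLOX-control replicate 1 it was 0.369 and did not (0.188).

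Snhg11, a neuronal host of SNORA71, had 525.8 and 647.7 CPM in the GFAP-ARO-KO libraries, against 502.8 and 557.8 CPM in the FLOX-control libraries. The groups overlapped, and the log2 fold change was 0.15 ± 0.12 (adjusted p = 0.424, interval -0.137 to 0.428). It was -0.0017 without GFAP-ARO-KO replicate 2. Gas5 relative to Snhg11 came to 18.2 and 15.6 Gas5 reads per 100 Snhg11 reads in GFAP-ARO-KO, against 10.2 and 13.7 in FLOX-control.

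Of 12 tested snoRNA host genes, Gas5 and Snhg11 included, 2 rose, 0 fell and 10 did not pass, with a median log2 fold change of 0.541. Of all genes tested 20.4% passed, and the median of all was -0.000809. At an unadjusted p under 0.05 by edgeR there were 4 of the 12, against 36.5% of all genes. Snhg5 had 13.78 and 24.11 CPM in GFAP-ARO-KO, against 7.41 and 6.27 CPM in FLOX-control, and rose by 1.46 ± 0.28 (adjusted p = 0.0158, and 0.0689 and 0.103 without FLOX-control replicate 1 and 2). Snhg12, named after its values were seen, had 16.63 and 15.88 CPM in GFAP-ARO-KO, against 10.57 and 10.77 CPM in FLOX-control, and rose by 0.61 ± 0.14 (adjusted p = 0.0239, and 0.162 and 0.158 without FLOX-control replicate 1 and 2). The count of hosts that rose was 0 without FLOX-control replicate 1, 1 without FLOX-control replicate 2, 5 without GFAP-ARO-KO replicate 1 and 3 with DESeq2.

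**Figure D4:**
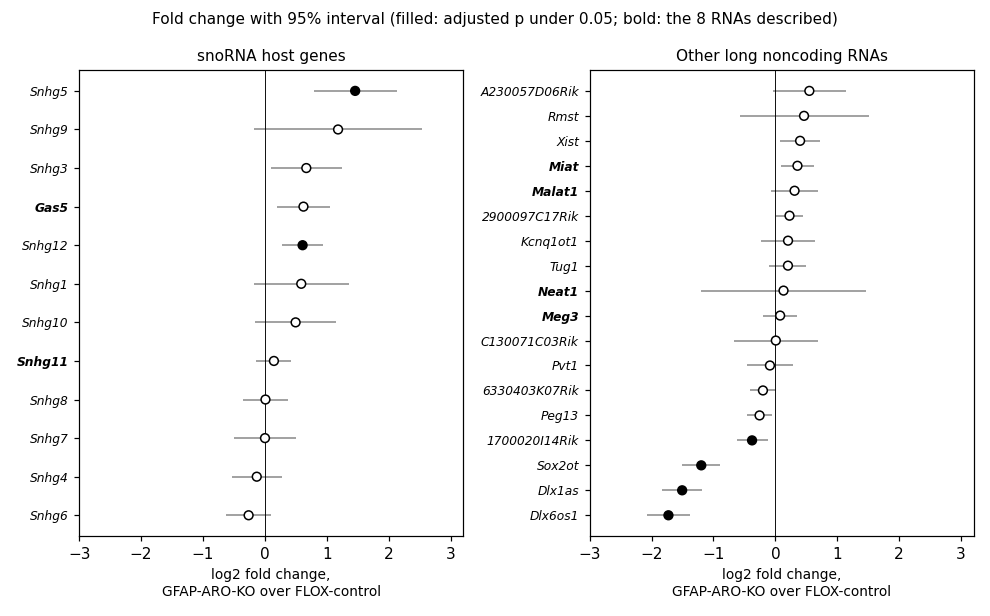
Log2 fold change of GFAP-ARO-KO over FLOX-control (horizontal axis) with 95% confidence intervals for tested snoRNA host genes and other long noncoding RNAs; filled points have an adjusted p under 0.05. Gas5 lies among the hosts with positive values, and Dlx6os1, Dlx1as and Sox2ot lie apart from Malat1, Miat, Neat1 and Meg3.

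Spliced RNAs of snoRNA hosts are known targets of nonsense-mediated decay, and Gas5 shares its 5' TOP start with translation genes. Of 8 tested decay factors 1 rose, Upf3b (0.49 ± 0.14, adjusted p = 0.0399), a call lost without FLOX-control replicate 1 (0.236), FLOX-control replicate 2 (0.157) or GFAP-ARO-KO replicate 2 (0.075). Without GFAP-ARO-KO replicate 1, 2 decay factors rose and 1 fell. Smg1, the kinase of that pathway, had a log2 fold change of 0.08 ± 0.14. With DESeq2, and also with the replicate number as a block, 1 decay factor rose and 1 fell. Upf2, named after its values were seen, did not pass by edgeR (-0.46 ± 0.14, adjusted p = 0.0537). It passed as lower by DESeq2 (adjusted p = 0.0238). Of 11 5' TOP genes other than ribosomal proteins 3 fell and 0 rose, with a median of -0.076. Gnb2l1, which encodes the ribosome-bound scaffold RACK1, fell by 0.49 ± 0.11 (adjusted p = 0.0196, and 0.154 without FLOX-control replicate 1), and Eef2, an elongation factor, had a log2 fold change of -0.08 ± 0.09. The count that fell was 0 without FLOX-control replicate 1, 1 without FLOX-control replicate 2 and 1 without GFAP-ARO-KO replicate 2.

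Gas5 is also known as a decoy of the glucocorticoid receptor, and Neat1 as a target of p53. Of all genes tested 9.39% passed as higher. Of 9 genes of the receptor and its targets 6 rose (4 without FLOX-control replicate 2 or GFAP-ARO-KO replicate 2), among them Plin4, a lipid droplet protein (1.41 ± 0.12, adjusted p = 0.00115), and Klf9, a transcription factor (0.52 ± 0.11, adjusted p = 0.021, and 0.0547 and 0.151 without FLOX-control replicate 1 and 2). Of 10 p53 targets 4 rose (2 without either control or GFAP-ARO-KO replicate 2, and 3 with 1 falling without GFAP-ARO-KO replicate 1). The cell cycle inhibitor gene Cdkn1a rose by 2.44 ± 0.26 (adjusted p = 0.00377, and 0.105 and 0.0535 without GFAP-ARO-KO replicate 1 and 2), and Zmat3, an RNA-binding protein, did not pass, at -0.28 ± 0.11 on the log2 scale (adjusted p = 0.12, and 0.0418 without GFAP-ARO-KO replicate 1).

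Some other long noncoding RNAs of brain passed. Of 18 tested, Malat1, Neat1, Meg3 and Miat included, 4 fell, 0 rose and 14 did not pass. With DESeq2 4 fell and 2 rose, and with the replicate number as a block 3 fell and 1 rose. Of all genes tested 20.4% passed, 11.0% as lower and 9.39% as higher. Dlx6os1, an RNA of the Dlx5 and Dlx6 locus of forebrain interneurons, had 7.23 and 8.37 CPM in GFAP-ARO-KO, against 24.91 and 26.58 CPM in FLOX-control, and fell by 1.73 ± 0.15 (adjusted p = 0.00121). Dlx1as, of the paired Dlx1 and Dlx2 locus, had 10.62 and 11.77 CPM in GFAP-ARO-KO, against 29.98 and 33.49 CPM in FLOX-control (adjusted p = 0.00133). Sox2ot, whose gene spans Sox2, had 12.44 and 11.52 CPM in GFAP-ARO-KO, against 27.03 and 28.02 CPM in FLOX-control (adjusted p = 0.00244). These 3 passed under all 14 alternatives; without GFAP-ARO-KO replicate 1, 4 of the list rose, Neat1 and Miat among them. Dlx1as and Sox2ot were named after their values were seen. Slc17a6, from the thalamus and hypothalamus list and also named after its values were seen, had 11.08 and 19.68 CPM in GFAP-ARO-KO, against 116.8 and 110.6 CPM in FLOX-control (log2 -2.90 ± 0.25, adjusted p = 0.00177), and its part in the levels of these RNAs was not tested. Of 8 markers of inhibitory neurons 2 fell (0 without either control), with sums of 1020 and 962.2 CPM in GFAP-ARO-KO, against 1095 and 1069 CPM in FLOX-control.

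The nearest genes among the counted symbols on each side of the 8 RNAs did not share one direction. Some of them lie far off, as C130026L21Rik is 625.3 kb from Miat. Of 28 such neighbours 18 were tested, and the rest were mostly microRNA genes with few or no reads. Of 18 tested neighbours 4 fell, 1 rose and 13 did not pass, where 20.4% of all genes tested passed. Frmd8, whose gene lies 4.2 kb upstream of Neat1 on the same strand, had 13.55 and 13.22 CPM in GFAP-ARO-KO, against 25.26 and 26.52 CPM in FLOX-control, and fell by 0.95 ± 0.13 (adjusted p = 0.00439), also with any 1 library left out. Crybb1, a crystallin gene 26.9 kb from Miat, fell by 1.92 ± 0.31 (adjusted p = 0.00723), with 28 and 17 reads in GFAP-ARO-KO, against 90 and 89 in FLOX-control. Cryba4, 17.5 kb from Miat, fell with 4 and 4 reads in GFAP-ARO-KO, against 27 and 13 in FLOX-control (adjusted p = 0.0496, and 0.0975 to 0.338 with 1 library left out), a call that held in 4 of the 13 alternatives that gave a value and was lost with DESeq2 (0.159). On the far side of Miat, C130026L21Rik fell by 1.26 ± 0.34 (adjusted p = 0.0374, and 0.122, 0.169 and 0.0607 without FLOX-control replicate 1, FLOX-control replicate 2 and GFAP-ARO-KO replicate 2). Beside Snhg11, 9430008C03Rik rose by 0.77 ± 0.18 (adjusted p = 0.0253, and 0.113 and 0.179 without FLOX-control replicate 1 and 2), while Ralgapb, a regulator of Ral GTPases, had a log2 fold change of -0.19 ± 0.10. Without either control 2 of the neighbours fell and 0 rose, and without GFAP-ARO-KO replicate 1 or 2 3 fell, with 3 and 2 rising.

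**Figure D5:**
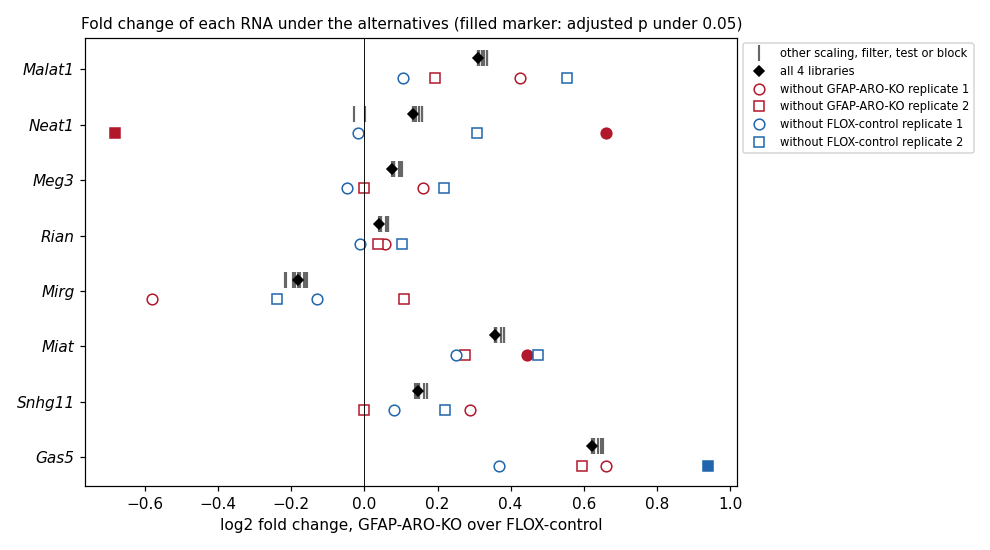
Log2 fold change of GFAP-ARO-KO over FLOX-control (horizontal axis) for each RNA with all 4 libraries (diamonds), under 10 other scalings, filters, tests or a block (ticks), and with 1 library left out (circles and squares, filled where the adjusted p was under 0.05). Gas5, Miat and Malat1 stay positive throughout, and Neat1 ranges from -0.682 to 0.662.

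Across the 4 libraries, the RNAs fell into like and unlike patterns, measured as the root mean square difference of mean-centred log2 CPM. Meg3 was closest to Snhg11 (0.0697) and Rian (0.0745), and Malat1 to Miat (0.0845), while Neat1 and Mirg were farthest apart (0.743). Of 8544 genes averaging a log2 CPM of 4 or more, the nearest to Gas5 were Nkd2 (0.0731) and Srsf5 (0.0992), and 2 lay within 0.1. The nearest to Neat1 were Bgn (0.103) and Tgm2 (0.106), and 0 lay within 0.1. Bgn, a matrix proteoglycan, had 11.67 and 27.69 CPM in GFAP-ARO-KO, against 18.9 and 21.04 CPM in FLOX-control. For the rest the nearest were Synm (0.0254) and S100pbp (0.044) to Malat1, Eapp (0.0222) and Ccdc55 (0.0224) to Meg3, Zfp384 (0.0109) and Inpp4a (0.0112) to Rian, and Fbxo18 (0.0194) and Atpbd4 (0.032) to Mirg. Miat was nearest to Rprd2 (0.00766) and Cryl1 (0.0151), and Snhg11 to Ddt (0.00407) and N4bp2l2 (0.0098). With 4 libraries such likeness is common, as 2000 genes lay within 0.1 of Rian and 577 of Meg3.

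The genes lie at chr19:5795690-5802671 (Malat1, minus strand), chr19:5824708-5845478 (Neat1, minus), chr12:110779211-110809936 (Meg3, plus), chr12:110842155-110899919 (Rian, plus), chr12:110973191-110987665 (Mirg, plus), chr5:112642248-112657968 (Miat, minus), chr2:158201374-158211881 (Snhg11, plus) and chr1:162964553-162968670 (Gas5, plus) of mm9. GENCODE vM1 types Snhg11 as protein-coding and the rest as noncoding. Of all 50-base windows of their exons, the read length used, the share found once in the genome was 100% for Mirg, Miat and Gas5. It was between 96.3% and 99.3% for Malat1, Neat1, Meg3 and Snhg11, and 86.5% for Rian. The Rian gene holds tandem SNORD113 copies, most of them outside its exons, and their part in that share was not tested. In the 4 libraries 35.73% to 37.35% of all tallied entries were set aside as not unique; their part in the Rian level was not tested. Exons of Meg3 share 1228 bases with Gm17639 and those of Malat1 425 bases with Gm20417, both on the opposite strand. The sources used here do not say whether counting used strand. On the same strand, the joined exons of Gas5 contain whole snoRNAs, such as SNORD44 (60 bases) and Snord47 (77 bases). Those of Snhg11 contain a SNORA71 of 133 bases. Snord47 is itself among the gene symbols counted. Reads of spliced and unspliced Gas5 were not told apart.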

How the data were processed

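Raw read counts per gene symbol were deposited by the authors, 1 file per library, from total RNA libraries sequenced from 1 end over 50 bases, per the labels' protocols. Tools were bcl2fastq, TopHat2 2.0.8b against mm9 and HTSeq, per the submitters' processing notes; reads of duplicate runs were combined, per the series' design text. The 5 tally rows, 45.17% to 47.3% of entries, stayed out. Gene counts summed to 27930696 to 34878375 per library. Groups came from the titles.

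CPM used TMM factors (0.9837 to 1.01). Genotypes were compared by the quasi-likelihood fit of edgeR 4.0.16 (R 4.3.3; robust, legacy=FALSE) after filterByExpr (minimum count 10, minimum total 15), with Benjamini-Hochberg adjustment over 15011 genes at 0.05. SE is the absolute log2 fold change over the square root of F. Steps were tested on simulated counts. Alternatives were other scalings, filters, DESeq2 1.42.0, limma-voom (limma 3.58.1), a replicate block and each library left out. Same-numbered replicates did not deviate together (correlation -0.00171 over genes), so the numbers were not taken as pairs.

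The 8 RNAs and the lists were chosen with earlier results of these data known. Named genes are the 8, the member of each list with the smallest p and the one with most reads, neighbours that passed, and the 2 genes nearest in pattern; some of these are not reported here. Lists were the Dlk1-Dio3 domain, genes beside it, other imprinted RNAs, snoRNA hosts, decay factors, 5' TOP genes, paraspeckle and speckle proteins, polycomb genes, other long noncoding RNAs, p53 and glucocorticoid targets, and cell type markers. Coordinates and exon lengths come from NCBIM37 (mm9) with GENCODE vM1, start sites and microRNAs from RefSeq.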

Additional observations from a re-analysis of the deposited data

How the results depend on the processing

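With 2 libraries a group, each library carries much of every result. Calls over all genes were 3061 (1409 higher, 1652 lower) and ranged from 813 to 4821 with 1 library left out (296 to 2388 higher, 517 to 2433 lower). The number of the 8 RNAs called was 0, ranging from 0 to 2 with 1 library left out; the other alternatives that kept all libraries gave 0, 1 (upper-quartile scaling, minimum count 50, legacy estimation, limma-voom) or 2 (no scaling factors, DESeq2, replicate block). Gas5 passed with upper-quartile scaling (0.6472, adjusted p = 0.0467), no scaling factors (0.6488, 0.0411), a minimum count of 50 (0.6391, 0.0484), legacy estimation (0.6226, 0.0499), DESeq2 (0.6271, 0.00396) and limma-voom (0.6513, 0.0435). Miat passed with no scaling factors (0.3817, adjusted p = 0.0477) and DESeq2 (0.3612, 0.0286). With the replicate number as a block, Gas5 (0.6501, adjusted p = 0.0104) and Miat (0.3587, 0.0413) passed, and 3194 genes were called; the numbers are not known to pair animals. Neat1 turned to -0.028 with limma-voom. With 1 library left out, log2 fold changes ranged from -0.6817 to 0.6618 for Neat1, -0.0462 to 0.217 for Meg3, -0.0133 to 0.1033 for Rian, -0.5797 to 0.1091 for Mirg, -0.0017 to 0.2883 for Snhg11, 0.2514 to 0.4759 for Miat, 0.3685 to 0.9389 for Gas5 and 0.1055 to 0.5552 for Malat1; the lone library left in a group is then assumed to vary like the other group. The cause of these changes was not tested.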
